A study of Mus musculus with 6 samples.

Results

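Genes of iron storage, uptake and export were described in 6 bulk RNA-seq libraries of mouse skull cells. The 10 genes were Ftl1, Fth1 and Ncoa4 for storage, Tfrc, Slc11a1 and Slc11a2 for uptake, Slc40a1 and Cp for export, Hmox1 for heme breakdown and Ireb2 for regulation. They were chosen by a reading of these counts, because Ftl1 was the gene with the most counts in every APPswe library and in none of the control libraries. The count table held 17830 genes, and all 10 passed the filter on low counts that left 13484 genes for testing. Because the values of Ftl1 chose the list, Ftl1 is described without a test, and the test was read for the 9 others.

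The libraries came from calvarial bone chips of mice aged 6 months, which the study states were male. Cells that grew out of the chips were cultured, sorted by flow cytometry for the red protein tdTomato, and used for RNA extraction. The 3 control libraries were labelled mOCN-Cre; Ai9 and the 3 APPswe libraries TgAPPswemOCN-Cre; Ai9. Both groups therefore carried mOCN-Cre, a Cre joined to the endogenous osteocalcin gene Bglap, and Ai9, a reporter allele that makes tdTomato once Cre has acted. The APPswe mice also carried human APP with the Swedish mutations behind a stop cassette that Cre removes, so the transgene depends on the cells in which Bglap was active. The labels do not say whether each library came from its own mouse, so p-values measure only the spread between these libraries, which may be technical.

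Iron enters most cells bound to transferrin, through the transferrin receptor, or as free metal through transporters of the Slc11 family. Inside the cell it is stored in ferritin, a hollow shell built of light chains (Ftl1) and heavy chains (Fth1). The heavy chain oxidises iron as it enters the shell, and the light chain favours the formation of the mineral core. Iron leaves through ferroportin (Slc40a1), and in macrophages much of it comes from the heme of engulfed red cells. Iron regulatory proteins, of which Ireb2 encodes one, bind short hairpins in the untranslated regions of some of these mRNAs when iron is low. Binding near the start of the mRNA holds back translation, and binding in the tail of the Tfrc mRNA protects it from decay.

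The hairpins are shown because they are a sequence feature that ferritin, ferroportin and the transferrin receptor share and that the choice of genes did not use. Transcripts of GENCODE M21 on build GRCm38 were searched for a C, a stem of 5 pairs (G with U allowed) and the loop CAGTGN, on the strand of the transcript. The matches are printed as DNA with 27 bases each, 5′ to 3′, with the 6 loop bases in capitals. 
Ftl1, 5′ untranslated region, chr7:45459780-45459806, minus strand: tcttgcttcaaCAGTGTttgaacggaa
Fth1, 5′ untranslated region, chr19:9982733-9982759, plus strand: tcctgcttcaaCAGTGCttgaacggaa
Slc40a1, 5′ untranslated region, chr1:45925466-45925492, minus strand: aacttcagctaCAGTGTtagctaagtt
Tfrc, 3′ untranslated region, chr16:32631220-32631246, plus strand: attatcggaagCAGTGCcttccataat
Tfrc, 3′ untranslated region, chr16:32631599-32631625, plus strand: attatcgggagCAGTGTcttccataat
Tfrc, 3′ untranslated region, chr16:32631664-32631690, plus strand: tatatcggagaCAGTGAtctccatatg
Tfrc, 3′ untranslated region, chr16:32631711-32631737, plus strand: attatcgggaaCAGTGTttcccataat

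The ferritin hairpins had 25 of 27 bases in common, and differed by T3C and T17C, with the base of Ftl1 first and positions counted from 1 at the 5′ end. Of 21877 coding genes, 30 (0.137%) held such a match in a 5′ untranslated region and 128 (0.585%) in a 3′ untranslated region. The other 6 genes of the list held no match to this pattern in either region. The pattern allows no unpaired base in the stem and no other loop, so hairpins of another form would be missed. Absence of a match therefore does not show that a gene lacks such a hairpin. A match describes the sequence and does not show that the hairpin acted in these cells.

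The libraries held between 17263757 and 18398392 counts, so that 3 counts, taken as the floor of detection, correspond to between 0.167 and 0.173 CPM, the counts scaled by library size after TMM normalization. This floor covers counting error only. Control replicate 2 stood apart. It held 2 counts over 4 Y-linked genes where the other 5 libraries held between 2257 and 3406, and its median over 12 osteoblast markers was 1.91 CPM against between 18.5 and 26.7 CPM. Values of the iron genes and the counts over lists are therefore given with and without it. The labelled cell type was checked against its markers: Bglap was at 6.92 ± 6.06 CPM in the controls and 7.504 ± 1.29 CPM in APPswe (SD, n = 3 each). Without control replicate 2 the control mean of Bglap was 10.35 CPM, and APPswe was lower (log2 fold change -0.46, adjusted p = 0.0337). Csf1r, the receptor that defines macrophages, was at 986 and 937 CPM in the same groups (adjusted p = 0.832). With that library left out its control mean was 799 CPM, and APPswe was higher (log2 fold change 0.23, adjusted p = 0.00556). App, the mouse counterpart of the transgene, was at 1119 ± 154 CPM in the controls and 1037 ± 19.2 CPM in APPswe (SD, n = 3 each). The human transcript has no row of its own in the table, so these values do not check the transgene.

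In every APPswe library Ftl1 ranked above all the genes that had ranked above it in controls, most of which had lower levels there. The choice of the list by the rank of Ftl1 fixed this order in advance. The genes named in this paragraph, Fth1 included, were picked by the same ranks, so their p-values are descriptive only. Ftl1 was the 7th, 7th and 6th most counted gene in control replicates 1, 2 and 3, and the first in each APPswe library. It took 0.864, 0.647 and 0.950% of all counts in the controls and 0.981, 1.07 and 1.12% in the APPswe libraries. The genes above it in at least 1 control were Lyz2, which encodes a lysozyme of macrophages, the lysosomal proteases Ctsb and Ctsd, Fth1, the matrix genes Fn1 and Spp1, and Eef1a1, which encodes a translation elongation factor. Every gene of these except Eef1a1 was lower in each APPswe library than in each control library. The groups did not overlap for 45% of all genes tested, and the choice by these ranks favoured lower values in APPswe. Lyz2 fell from 13550 ± 3335 to 7622 ± 411 CPM (SD, n = 3 each; log2 fold change -0.83, adjusted p = 0.0222). Ctsb fell from a mean of 11210 to 5651 CPM (adjusted p = 0.00139), and Ctsd fell from 11030 to 4497 CPM (adjusted p = 0.000893). Eef1a1, which ranked above Ftl1 in control replicate 2 and second in every APPswe library, was at 7022 CPM in control and 8451 CPM in APPswe libraries, with an adjusted p of 0.250. All these p-values come from the quasi-likelihood test of edgeR, adjusted by Benjamini and Hochberg's method across the 13484 genes. To pass the test, a gene needed an adjusted p of at most 0.05.

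Ftl1 itself (gene 14325, chr7:45457944-45459886) was counted 152542, 117346 and 174787 times in control and 169345, 187893 and 196248 times in APPswe libraries. Scaled to library size this was 8809, 6596 and 9865 CPM in control against 9495, 10470 and 11030 CPM in APPswe. The highest control library lay above the lowest APPswe library, so the groups overlapped. The group means were 8423 ± 1668 and 10330 ± 776 CPM (SD, n = 3), a log2 change of 0.29 with a standard error (SE) of 0.16. Without control replicate 2 the log2 fold change was 0.15 (SE 0.07). As a description, the 5 genes whose centred log2 CPM over the 6 libraries lay nearest to that of Ftl1, of 6150 genes that averaged at least 5 on that scale, were Slc2a1, Rras, Mllt6, Vamp2 and Imp3. Their root mean square distances ran from 0.030 to 0.042 on the log2 scale.

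Fth1, the heavy chain (gene 14319, chr19:9980600-9985111), had the opposite order. It was at 11340, 7430 and 12680 CPM in control and 6776, 6809 and 7058 CPM in APPswe libraries. Every APPswe library lay below every control library, and control replicate 2 was nearest to them. The log2 fold change was -0.61 (SE 0.19, adjusted p = 0.0619), short of the threshold, and -0.80 (SE 0.06, adjusted p = 1.628e-06) without control replicate 2. The table of counts held none of the 3 Ftl pseudogenes and none of the 4 pseudogenes with names that begin with Fth in the RefSeq annotation. The latter were Fth-ps2, Fth-ps3 and, from the Fthl17 family, Fthl17-ps2 and Fthl17-ps3. Reads shared with copies of Ftl1 or Fth1 could have been counted on these 2 genes, and both levels are uncertain by that amount.

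The ratio of light to heavy chain transcripts was below 1 in each control library and above 1 in each APPswe library. It was taken from FPKM values, fragments normalized to transcript length and library size, since levels of different genes can be compared only per length. The ratio was 0.746, 0.853 and 0.747 in control replicates 1, 2 and 3 and 1.346, 1.477 and 1.501 in APPswe replicates 1, 2 and 3. The means were 0.782 ± 0.0615 and 1.441 ± 0.0834 (SD, n = 3), and control replicate 2 lay nearest to the APPswe group without reaching it. As Ftl1 chose the list, the ratio is given without a test. Ftl1 was chosen for having the most counts in each APPswe library, so its count ratio to Fth1 had to exceed 1 there. The side of the FPKM ratio in APPswe libraries was thereby largely set in advance, while that in control libraries was not. Both ferritin transcripts together took 1.84 ± 0.41% of counts in control and 1.76 ± 0.08% in APPswe libraries (SD, n = 3), and the groups overlapped.

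**Figure D1:**
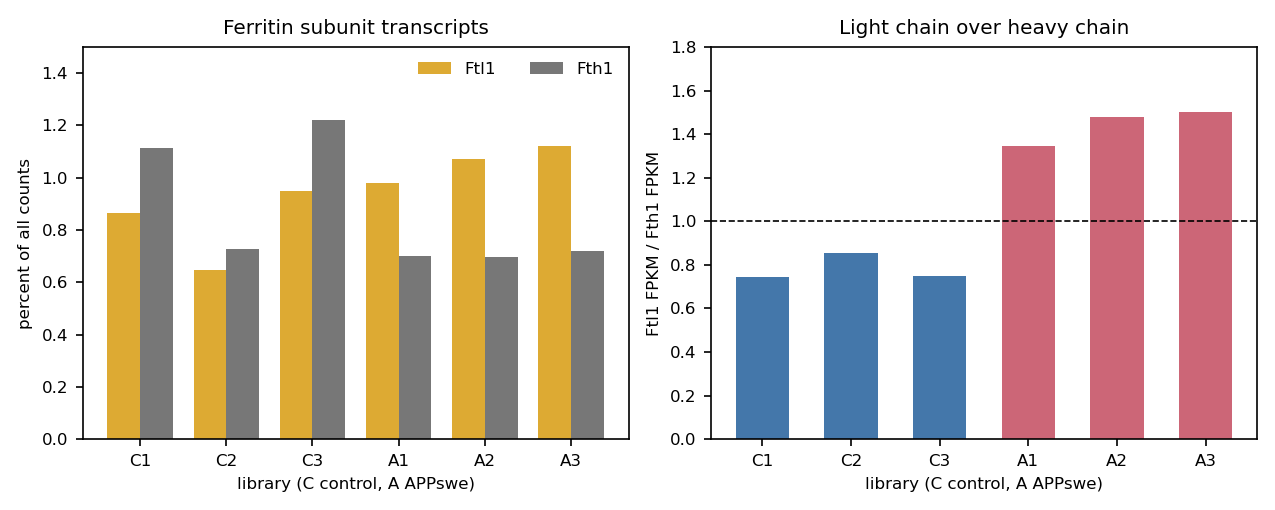
Left, the percent of all counts that fell on Ftl1 and on Fth1 in each library; right, the ratio of their FPKM values, with a dashed line at 1. C1 to C3 are control and A1 to A3 APPswe replicates, each bar is 1 library, and the ratio is at most 0.853 in control and at least 1.346 in APPswe libraries. The choice of Ftl1 by its rank largely set the side above 1 in APPswe libraries.

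Ncoa4, the receptor that carries ferritin to the lysosome for release of its iron (gene 27057, chr14:32159879-32179855), was at 234.5, 160.1 and 204.8 CPM in control and 160.0, 140.2 and 139.2 CPM in APPswe libraries. The groups were separated by less than 1 CPM, between control replicate 2 and APPswe replicate 1. The log2 fold change was -0.45 (SE 0.15, adjusted p = 0.0708), and it was -0.58 (adjusted p = 0.0002048) without control replicate 2.

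Among the uptake genes, Tfrc was higher and Slc11a2 lower in APPswe libraries. Tfrc, the transferrin receptor that carries the 4 hairpins printed above (gene 22042, chr16:32608896-32632794), was at 64.85, 76.56 and 56.55 CPM in control and 110.1, 92.93 and 95.58 CPM in APPswe libraries. Every APPswe library was above every control library. The means rose from 66.0 ± 10.1 to 99.5 ± 9.22 CPM (SD, n = 3), a log2 change of 0.59 (SE 0.13, adjusted p = 0.0208). The change was 0.72 (adjusted p = 0.0001097) without control replicate 2. Leaving out any one of the other 5 libraries gave adjusted p-values between 0.0514 and 0.0821.

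Slc11a2, the transporter DMT1 that moves ferrous iron out of endosomes (gene 18174, chr15:100387898-100424209), was at 73.28, 69.03 and 82.00 CPM in control and 54.33, 58.83 and 61.02 CPM in APPswe libraries. The groups did not overlap, and here control replicate 2 lay close to the other controls. The log2 fold change was -0.36 (SE 0.09, adjusted p = 0.0332), and -0.42 (adjusted p = 0.001508) without that library. Leaving out any one of the other libraries ended the call, with adjusted p-values between 0.0708 and 0.123, as did omitting the TMM scaling (adjusted p = 0.0522). Slc11a1, its relative in the phagosomes of macrophages (gene 18173, chr1:74375014-74386057), ran from 135.2 to 233.8 CPM in control and from 197.6 to 217.7 CPM in APPswe libraries. Its groups overlapped, with an adjusted p of 0.780, and the log2 fold change turned from 0.09 (SE 0.20) to -0.11 (SE 0.07, adjusted p = 0.186) without control replicate 2.

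The export genes went in opposite directions, and neither passed the test over all libraries. Slc40a1, ferroportin, the iron exporter of mammalian cells (gene 53945, chr1:45908070-45926532), was at 103.2, 53.51 and 87.99 CPM in control and 147.5, 132.1 and 133.3 CPM in APPswe libraries. Every APPswe library was above every control library. The means were 81.6 ± 25.5 and 138 ± 8.53 CPM (SD, n = 3), a log2 change of 0.75 (SE 0.23) with an adjusted p of 0.0542. Leaving out control replicate 2, the lowest library, gave 0.53 (adjusted p = 0.0004662).

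Cp, ceruloplasmin, the copper enzyme that oxidises iron after export (gene 12870, chr3:19956933-20009750), was at 35.86, 9.106 and 31.89 CPM in control and 10.54, 7.855 and 7.923 CPM in APPswe libraries. Control replicate 2 fell among the APPswe libraries, while the other controls lay far above them. The log2 fold change was -1.54 (SE 0.48, adjusted p = 0.0603), the largest in size of the 10 genes, and -1.94 (SE 0.13, adjusted p = 5.976e-07) without control replicate 2.

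Hmox1, heme oxygenase 1, which frees iron from heme (gene 15368, chr8:75093618-75100593), was at 1355, 851.3 and 1437 CPM in control and 825.6, 870.5 and 874.1 CPM in APPswe libraries. Control replicate 2 again lay within the range of the APPswe group. The log2 fold change was -0.50 (SE 0.19, adjusted p = 0.106), and -0.70 (SE 0.06, adjusted p = 3.612e-06) without that library. Ireb2, which encodes iron regulatory protein 2 (gene 64602, chr9:54862658-54912534), ran from 53.95 to 75.83 CPM in control and from 68.72 to 87.80 CPM in APPswe libraries. Its groups overlapped, with a log2 fold change of 0.25 (SE 0.15, adjusted p = 0.264), which became 0.37 (adjusted p = 0.02082) without control replicate 2. It also passed in a fit with a term for how the libraries were named (0.37, adjusted p = 0.0480).

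**Figure D2:**
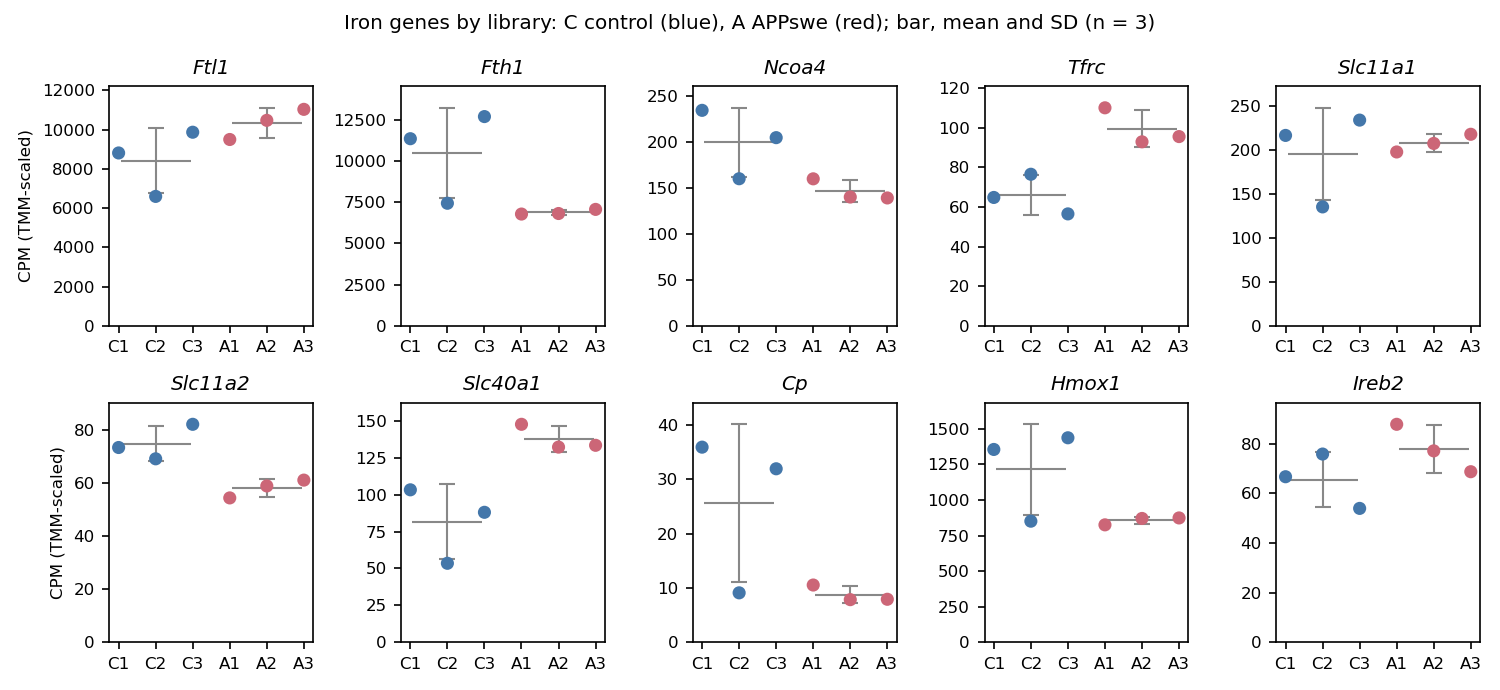
Each point is the CPM of 1 library (C1 to C3 control in blue, A1 to A3 APPswe in red), with the group mean and SD in grey (n = 3) and each vertical axis starting at 0. The APPswe points of Tfrc and Slc40a1 lie above all control points, those of Fth1, Ncoa4 and Slc11a2 lie below, and control replicate 2 (C2) lies beside the APPswe points for Cp and Hmox1.

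Over the 9 genes other than Ftl1, 1 (Tfrc) passed the test as higher and 1 (Slc11a2) as lower. This was 22.2% of them. Among all genes tested, 10.5% passed as higher and 12% as lower, so the share of iron genes past the test was close to the background. Genes past the test were higher in 46.6% of cases, and in 58.9% without the TMM scaling, where Tfrc and Slc40a1 were the iron genes past the test. None of the 9 also reached an absolute log2 fold change of 1, against 7.34% of all genes, while 7 had an unadjusted p of at most 0.05, against 37.2% of all genes, and DESeq2 gave 7 an adjusted p of at most 0.05, against 23.9% of the 14666 genes it adjusted. The groups did not overlap for 5 of the 10 genes, 2 higher and 3 lower, against 45% of all genes tested. The median log2 fold change of the 9 genes was -0.36, beside -0.0033 over all genes tested.

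Without control replicate 2, 8 of the 9 genes passed the test, with Tfrc, Slc40a1 and Ireb2 higher and Fth1, Ncoa4, Slc11a2, Cp and Hmox1 lower. The background rose as well, to 48.3% of 13753 genes. Slc11a1 was the 1 gene of the 9 that did not pass.

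**Figure D3:**
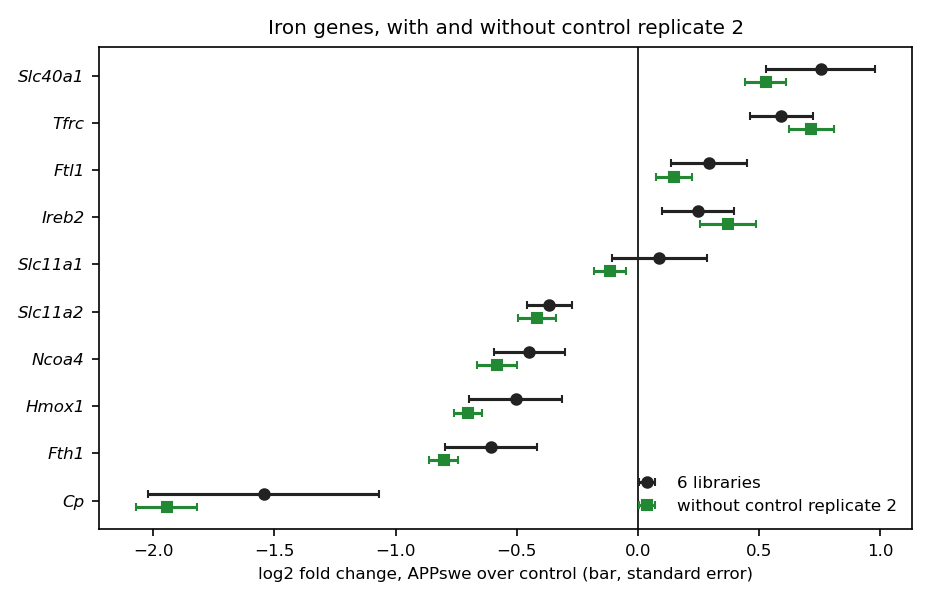
Log2 fold change of APPswe over control for each of the 10 genes, with its standard error, over 6 libraries (black circles) and without control replicate 2 (green squares). The signs are the same in both fits except for Slc11a1, which moves from 0.09 to -0.11.

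Library names were written in 2 styles, with a hyphen for control replicates 1 and 2 and APPswe replicate 1 and with a low line for the other 3 libraries. The labels do not say what the styles stand for. Within the hyphen libraries the log2 difference of Ftl1 was 0.32 and within the others 0.12. That of Fth1 was -0.44 and -0.87, that of Tfrc 0.64 and 0.74, that of Slc11a2 -0.39 and -0.45, and that of Slc40a1 0.99 and 0.59. For Cp it was -0.78 and -2.01, for Hmox1 -0.38 and -0.72, for Ncoa4 -0.28 and -0.55 and for Ireb2 0.30 and 0.43. The sign was the same in both styles for these 9 genes, whereas Slc11a1 gave 0.21 and -0.14. With the name style as a covariate 3 of the 9 tested iron genes passed, Tfrc, Slc11a2 and Ireb2, against 20.3% of all genes.

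Per length, the ferritin transcripts stood far above the other genes of the list. Over the 6 libraries Ftl1 had a mean of 13200 FPKM, ranging from 9009.11 to 15800.5, and Fth1 a mean of 12620 FPKM, ranging from 10179.42 to 17994.24, so the levels of these neighbours overlapped. Hmox1 followed with a mean of 782 FPKM and Slc11a1 with 96.0 FPKM. Ncoa4 (53.9 FPKM), Slc40a1 (35.9), Slc11a2 (20.96), Tfrc (17.8) and Ireb2 (13.7) came next, and Cp was lowest with 4.11 FPKM. The lowest library of Hmox1 was above the highest of Slc11a1, and no library of Cp reached the level of Ireb2 in any library. From Slc11a1 down to Ireb2, each gene's range over the 6 libraries overlapped with that of the next.

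Other genes of iron handling were read from lists of pathway members. Of 16 tested uptake genes, 3 rose and 5 fell, a median log2 fold change of -0.09. This was 50% of the list, beside 22.5% of all genes tested in either direction. Cd163, 1 of the 5 that fell, had 18, 18 and 16 counts in control and 6, 3 and 8 in APPswe libraries. Cd163 passed the filter on low counts only through the control libraries, so its test is not read. Steap4, a reductase that prepares iron for transport, rose from 2.63 ± 2.12 to 16.6 ± 0.202 CPM (SD, n = 3; log2 fold change 2.66, adjusted p = 0.0341). Scara5, a receptor that can take up ferritin, rose from 7.27 ± 4.85 to 33.3 ± 0.864 CPM (log2 fold change 2.20, adjusted p = 0.0323). In both genes control replicate 2 was the lowest library, at 0.281 CPM for Steap4 and 1.742 CPM for Scara5, and the log2 fold changes without it were 2.13 and 1.73.

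Genes of the same list that fell included the carrier protein of serum iron and a metal transporter. Trf, transferrin, fell from 201 ± 61.3 to 97.1 ± 4.01 CPM (SD, n = 3; log2 fold change -1.05, adjusted p = 0.0199). Slc39a8, a transporter of zinc, manganese and iron, fell from 26.8 ± 2.81 to 12.8 ± 1.41 CPM (log2 fold change -1.07, adjusted p = 0.00307). Its close relative Slc39a14, named here after its values were seen, rose from 95.9 to 128 CPM (log2 fold change 0.42, adjusted p = 0.00896). With control replicate 2 left out, the uptake list had 5 genes higher and 9 lower of 17 (82.4%), beside 48.3% of all genes.

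Of 8 tested genes of export and of the hepcidin axis, the pathway by which the liver hormone hepcidin controls ferroportin, 3 rose and 1 fell, which was 50% beside the 22.5% of all genes, with a median log2 fold change of -0.15. Neo1, a coreceptor in that pathway, rose from 61.6 to 83.9 CPM (log2 fold change 0.45, adjusted p = 0.00639), and Hfe, the gene mutated in hereditary hemochromatosis, from 69.4 to 86.2 CPM (0.31, adjusted p = 0.0153). Hjv, hemojuvelin, was named after its values were seen and is best known from liver and skeletal muscle. It was at most 0.0578 CPM in the controls, under the floor of detection, and between 1.85 and 2.47 CPM in APPswe libraries. Hjv is counted among the 3 genes that rose. It passed the filter on low counts only through the APPswe libraries, so its test is not read. Flvcr2, the 1 gene that fell, had low counts, at 31, 28 and 17 in control and 11, 11 and 7 in APPswe libraries. A list of 10 skeletal muscle markers summed to values from 2.83 to 10.9 CPM in the controls and from 169 to 176 CPM in APPswe. Most of its 9 tested genes passed the filter on low counts only through the APPswe libraries, so their tests are not read. The part of this list in the value of Hjv was not tested. The list of export genes had 3 higher and 3 lower of 8 (75%, beside 48.3% of all genes) once control replicate 2 was left out.

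Among 8 genes of iron sensing and iron chaperones, 1 rose and 3 fell (50%, beside 22.5% of all genes), with a median log2 fold change of -0.15. Bach1, a repressor that heme inactivates and that acts on Hmox1, rose from 54.6 ± 8.41 to 73.9 ± 4.28 CPM (SD, n = 3; log2 fold change 0.44, adjusted p = 0.0439). Nfe2l2, which encodes NRF2, an activator of the ferritin genes and Hmox1, fell from 275 to 213 CPM (log2 fold change -0.37, adjusted p = 0.0316). Keap1, the inhibitor of NRF2, and Pcbp1, a chaperone that delivers iron to ferritin, fell as well, with log2 fold changes of -0.33 (adjusted p = 0.0383) and -0.29 (adjusted p = 0.0327). Leaving out control replicate 2 gave 2 higher and 4 lower (75%, beside 48.3%).

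Of 10 NRF2 targets outside iron handling, 3 rose and 2 fell (50%, beside 22.5% of all genes), with a median log2 fold change of 0.16. Gclm, a subunit of the enzyme that starts glutathione synthesis, rose from 118 ± 13.9 to 226 ± 12.1 CPM (SD, n = 3; log2 fold change 0.94, adjusted p = 0.00220). Gsr, glutathione reductase, rose by 0.76 (adjusted p = 0.00113) and Srxn1, sulfiredoxin, by 0.46 (adjusted p = 0.00958), both on the log2 scale. G6pdx, which supplies NADPH, fell from 227 to 160 CPM (log2 fold change -0.50, adjusted p = 0.00431). The list therefore did not move in 1 direction, and without control replicate 2 it had 5 higher and 2 lower (70%, beside 48.3%).

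Of 18 genes of mitochondrial iron and iron-sulfur clusters, 3 rose and none fell, with a median log2 fold change of 0.05. This was 16.7% of the list, below the 22.5% of all genes. Glrx5 (log2 fold change 0.34, adjusted p = 0.0418) and Isca1 (0.26, adjusted p = 0.0390) assemble iron-sulfur clusters, and Slc25a37 (0.33, adjusted p = 0.0205) is mitoferrin 1, which brings iron into mitochondria. None of 8 tested heme synthesis genes passed edgeR's test, beside 22.5% of all genes. Of the 8, 3 had an unadjusted p of at most 0.05, beside 37.2% of all genes. DESeq2 called 1 of the 8, beside 23.9% of the genes it adjusted. Of 7 genes of heme handling 1 (14.3%) passed, Spic, a transcription factor of iron-recycling macrophages, named after its values were seen. It was at 0.0756 CPM in control, under the floor of detection, and 1.92 CPM in APPswe libraries. Spic passed the filter on low counts only through the APPswe libraries, so its test is not read. Once control replicate 2 was left out, the mitochondrial list had 5 higher and 4 lower of 18 (50%), heme synthesis 1 higher and 2 lower (37.5%), and heme handling 2 higher and 3 lower (71.4%), beside 48.3% of all genes.

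**Figure D4:**
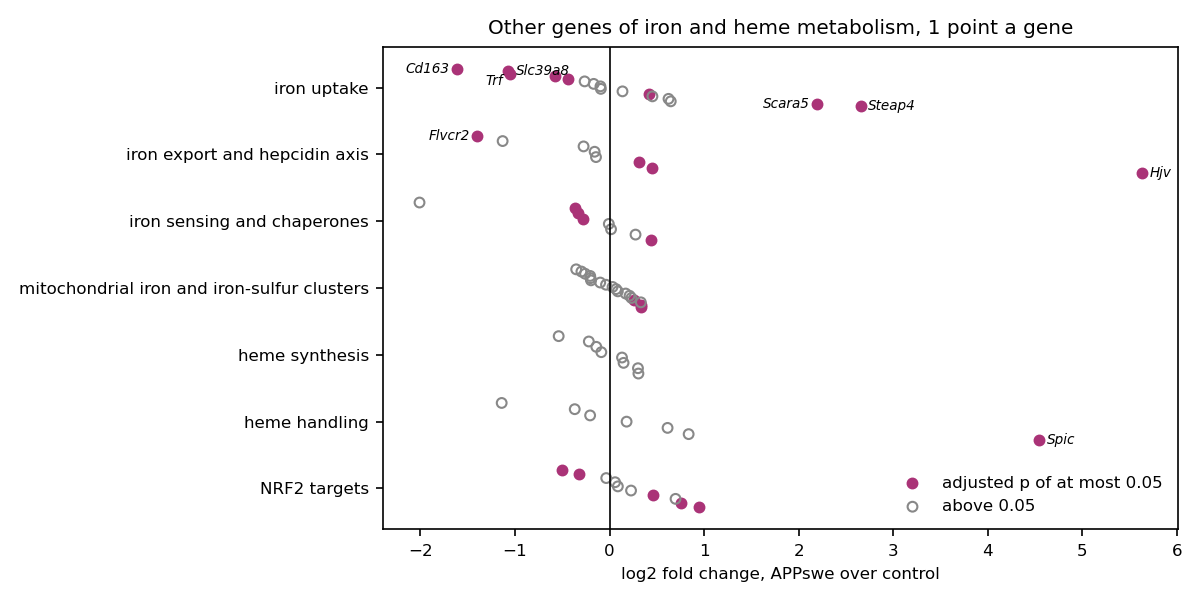
Each point is the log2 fold change of 1 tested gene, APPswe over control, in 7 lists of iron, heme and NRF2 genes. Filled points have an adjusted p of at most 0.05 and open points do not, and those past the test with an absolute log2 fold change over 1 carry their names. Hjv, Spic and Cd163 passed the filter on low counts only through 1 group, and their tests are not read.

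Markers of several cell types differed between the groups, and in bulk RNA fewer cells of a type and less RNA per cell cannot be told apart. The 14 macrophage markers summed to values from 18180 to 24990 CPM in the controls and from 12580 to 13560 CPM in APPswe. Of the 14, 8 passed the test as lower and 1 (Aif1) as higher, which was 64.3% beside 22.5% of all genes tested. Adgre1, another defining marker, fell from 604 to 416 CPM (adjusted p = 0.0436), while Csf1r overlapped between the groups and turned to higher without control replicate 2, as given above. That fit had 3 of the 14 macrophage markers higher and 10 lower (92.9%, beside 48.3% of all genes). The 8 osteoclast markers summed to values from 158 to 290 CPM in the controls and from 719 to 731 CPM in APPswe. Of 7 tested genes 5 were higher (71.4%, beside 22.5%), and all 7 without control replicate 2 (100%, beside 48.3%). Some of the 5, Ocstamp and Oscar included, passed the filter on low counts only through the APPswe libraries. The tests of those genes are not read, and the shares of this list are descriptive only. The 12 osteoblast markers overlapped between the groups, with sums from 8691 to 11490 CPM in the controls and from 7963 to 8764 CPM in APPswe, and these sums came mostly from the collagen genes Col1a1 and Col1a2, at 3982 to 4965 CPM in group means. Single osteoblast markers were mixed. Sp7 and Runx2 rose over all libraries, which was 16.7% of the list beside 22.5% of all genes. The groups did not overlap for 5 of the 12, beside 45% of all genes tested. Without control replicate 2, Sp7, Runx2, Alpl and Pth1r passed the test as higher, and Bglap, Bglap2, Ibsp, Phex and Dmp1, a marker of late osteoblasts and osteocytes (log2 fold change -4.21), as lower. This was 75% of the list, beside 48.3% of all genes.

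Endothelial markers, 5 genes, summed to between 26.8 and 196 CPM in control, with control replicate 2 the lowest, and between 9.47 and 11.1 CPM in APPswe libraries. In the sum of this list, as in Cp, control replicate 2 was far below the other controls. Kdr, 1 of the 5, went the other way, at 25.46 CPM in control replicate 2 against 10.86 and 12.64 CPM in control replicates 1 and 3. Of the 5 genes 1 passed the test as lower (20%, beside 22.5% of all genes), and all 5 did without control replicate 2 (100%, beside 48.3%). Erythroid markers summed to at most 5.06 CPM in any library, and the hemoglobin gene Hbb-bs had at most 1 count in each library. The 6 neutrophil markers summed to at most 1.57 CPM. How far the macrophage, osteoclast, muscle and endothelial lists bear on Fth1, Cp, Hmox1, Tfrc and Slc40a1 was not tested.

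**Figure D5:**
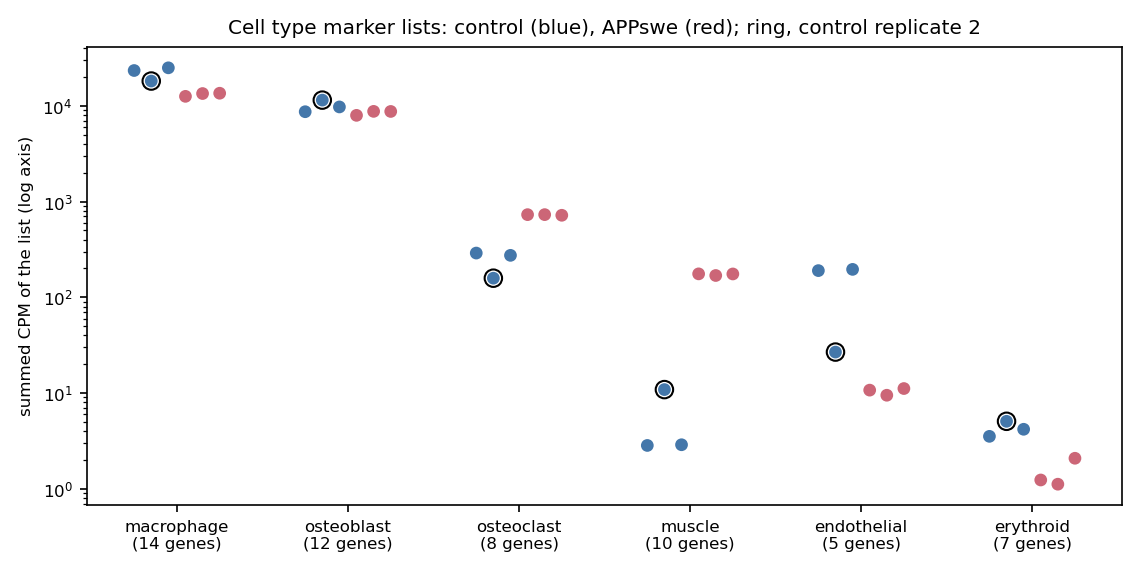
Summed CPM of each cell type marker list on a log axis, 1 point a library, for control (blue) and APPswe (red), with a ring around control replicate 2. The macrophage and endothelial sums are lower and the osteoclast and muscle sums higher in every APPswe library than in every control library, and the osteoblast sums overlap.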

How the data were processed

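Bulk RNA-seq was analysed for 6 libraries, 3 control and 3 APPswe, grouped by the sample titles. Libraries were made with a SMARTER mRNA-Seq kit and sequenced on the DNBseq platform. The authors deposited read counts per gene, numbered as in NCBI, without normalization. The deposited FPKM values, also the authors' own, served for ratios and for the order of levels between genes. The aligner and the counting tool are not given in the sources used here. The build GRCm38 is from the submitters' processing notes, gene coordinates are from RefSeq (GRCm38.p6), and hairpins were read from GENCODE M21 transcripts. The log2 fold changes and p-values of the authors' deposited comparison of APPswe with control were not used.

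The genes and lists were chosen with earlier results of these data known. The test used edgeR 4.0.16 in R 4.3.3 (TMM, filterByExpr, quasi-likelihood test, no covariate), with Benjamini-Hochberg adjustment over 13484 genes. Named genes were the 10 members, up to 4 genes past the test per list by absolute log2 fold change (mean log2 CPM of at least 1), the 5 nearest profiles to Ftl1, the 3 most counted genes of each library and defining markers. Named outside this rule were Hjv, Spic, Slc39a14, Cd163, Flvcr2, Ocstamp, Oscar, Kdr, Fn1, Spp1, Aif1, mouse App and the other single osteoblast markers. Alternatives were DESeq2 1.42.0, its size factors, no TMM, a looser and a stricter filter, a replicate block, the library name style as a covariate, each library left out, and limma 3.58.1 on log2(FPKM + 1) or log2(FPKM + 0.1). The tests were tested on simulated data with changed genes at a log2 fold change of 2. There edgeR found 179 of 197 changed genes and called 11 unchanged ones. DESeq2 found 185 of 200 and called 65 unchanged genes, and limma found 177 of 193 and called 12. Chi-square per degree of freedom, near 1 under sampling noise alone, was computed for each pair of libraries. It was lowest for APPswe replicates 2 and 3, at 1.573. For control replicates 1 and 3 it was 5.945, for the other APPswe pairs 7.104 and 7.602, and with control replicate 2 at least 72.87. Every value exceeded 1, so each library was kept as a replicate. APPswe replicates 2 and 3 may still be near repeats of the same material, which the labels do not settle.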

Additional observations from a re-analysis of the deposited data

How the results depend on the processing

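The number of all genes past the test was 3036 and stayed within 1.5 times that number under other scalings, filters, tools and the name style, while it was 2021 with the replicate block and ran from 1024 without APPswe replicate 3 to 6637 without control replicate 2. Of the 9 iron genes tested, 2 passed (22.2%, beside 22.5% of all genes). With DESeq2 7 passed (beside 23.9%), and 3 with the name style as a covariate (Ireb2 added, beside 20.3%). The replicate block left 1 (Tfrc), beside 2021 of 13484 genes. Limma on log2(FPKM + 1) with no filter gave 1, beside 2814 of 17382 genes. With a library left out the number ran from 0 to 8 (without control replicate 2, beside 48.3% of all genes), and the cause was not tested. It was 0 without control replicate 3 or any 1 APPswe library, where between 1024 and 1957 of all genes passed. In those fits between 4 and 6 of the 9 had an unadjusted p of at most 0.05. The share of all genes at that unadjusted p was computed only over all 6 libraries (37.2%). The direction of each of the 10 genes was the same under all 16 alternatives except for Slc11a1, whose log2 fold change ran from -0.11 without control replicate 2 to 0.23 with another library left out. Tfrc passed in 11 of the 16 alternatives, with adjusted p-values from 0.0001097 to 0.0821, and Slc11a2 and Slc40a1 in 6 each. Samples with the same replicate number did not deviate together (correlations 0.07, -0.03 and 0.14), so the numbers were not taken as pairs. Without control replicate 2, an alternative for the lists chosen after seeing the data, uptake genes past the test went from 8 to 14, mitochondrial genes from 3 to 9, heme synthesis from 0 to 3 and heme handling from 1 to 5, while the share of all genes past the test went from 22.5% to 48.3%. Copies of the ferritin genes and 3 libraries a group limit the precision.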
